A study of Mus musculus with 12 samples.

Results

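The loss of BMAL1 in cells that had not been made senescent was examined in 6 of the 12 RNA-seq libraries of the series: the 3 libraries of WT control cells and the 3 of KO control cells, compared across all genes. The cells were mouse adult fibroblasts (MAFs), taken into primary culture from ears. WT MAFs came from C57BL6/J mice, and KO MAFs came from Bmal1-/- mice, which the study describes as arrhythmic and without a working clock. Control cells of both genotypes were sham irradiated and were neither irradiated nor senescent, whereas the other 6 libraries came from MAFs of the same genotypes after 20 Gy of X-rays. All cells were kept in 10% serum at 3% oxygen, were given 100 nM dexamethasone, a glucocorticoid that sets the clocks of a culture to a common phase, and were collected 12 h later. Each genotype was therefore seen at a single time after synchronisation, and a change in level and a change in phase cannot be told apart. Neither the labels nor the methods say whether the 3 libraries of a group came from separate mice or cultures, so the p-values measure the spread between these libraries, which may be technical. The counts of each genotype were deposited in a table of their own, and handling that differed between the tables cannot be told apart from genotype.

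BMAL1, encoded by Arntl, is a transcription factor that pairs with CLOCK or with its relative NPAS2 and binds E-boxes, sites with the letters CACGTG. Among the genes it activates are those of its own repressors, the PER and CRY proteins, and those of the nuclear receptors REV-ERBα (Nr1d1) and REV-ERBβ (Nr1d2). The REV-ERBs in turn repress Arntl, Npas2 and Cry1 through response elements that they share with the activating ROR receptors. In fibroblasts the clock is known for its links to collagen secretion, cell division and the response to glucocorticoids.

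3 promoter windows are shown because they place the clock genes that follow beside the motif that BMAL1 binds: Ciart and Cry1, whose RNA was higher without BMAL1, and Nr1d1, whose RNA was lower. Each is the RefSeq window on GRCm38.p6 from 250 bases before to 50 bases after a transcription start, 5′ to 3′ on the strand of the gene, with every E-box CACGTG in capitals. The windows lie at chr3:95882179-95882478, minus strand (Ciart), chr10:85185005-85185304, minus strand (Cry1) and chr11:98775328-98775627, minus strand (Nr1d1).
Ciart: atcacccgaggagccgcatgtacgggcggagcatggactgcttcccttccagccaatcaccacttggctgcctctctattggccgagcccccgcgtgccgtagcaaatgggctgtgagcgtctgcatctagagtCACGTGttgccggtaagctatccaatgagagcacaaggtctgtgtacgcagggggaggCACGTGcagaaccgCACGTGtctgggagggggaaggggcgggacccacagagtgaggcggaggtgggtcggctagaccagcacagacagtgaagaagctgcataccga
Cry1: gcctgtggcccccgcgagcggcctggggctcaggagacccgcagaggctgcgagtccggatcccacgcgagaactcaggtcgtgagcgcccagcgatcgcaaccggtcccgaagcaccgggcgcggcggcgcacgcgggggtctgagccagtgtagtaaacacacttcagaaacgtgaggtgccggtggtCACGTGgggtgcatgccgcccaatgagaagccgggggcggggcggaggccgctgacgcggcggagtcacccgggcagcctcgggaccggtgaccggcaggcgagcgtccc
Nr1d1: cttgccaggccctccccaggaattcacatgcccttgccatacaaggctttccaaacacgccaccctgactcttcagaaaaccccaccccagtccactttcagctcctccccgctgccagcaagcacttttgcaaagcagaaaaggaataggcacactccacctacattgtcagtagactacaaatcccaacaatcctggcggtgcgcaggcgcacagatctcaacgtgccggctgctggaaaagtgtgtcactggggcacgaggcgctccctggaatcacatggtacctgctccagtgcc
The Ciart window holds 3 E-boxes, the Cry1 window 1 and the Nr1d1 window 0. The absence of a match says only that these letters were not in this window. Other clock genes with CACGTG in a window were Tef and Tspan4, which rose, and Per1 and Bhlhe41, which did not pass the test described below. The windows shown are therefore examples only. CACGTG reads the same on both strands. It occurred in 7 of 33 windows of the clock genes (21.2%), in 9.3% of the windows of all genes tested, in 4.49% of the windows of genes called higher in KO cells and in 5.83% of those called lower. The AP-1 motif, TGACTCA or TGAGTCA, which are each other's reverse complements, occurred in 4.09% of the windows of all genes tested, in 7.3% of those of genes called higher and in 4.85% of those of genes called lower. These shares are descriptions and were not tested.

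Total counts were 23923030 to 31736083 per control library, and 3 counts, taken as the detection floor, equalled 0.101 to 0.135 CPM. CPM, the unit of level used here, divides the counts of a gene by the TMM-scaled library total and multiplies by 1000000. Floors cover counting error only. Fibroblast markers were abundant: the summed level of 11 fibroblast genes was 58657 to 62769 CPM in WT and 59185 to 71999 CPM in KO control libraries. Of the 8 markers each of keratinocytes, macrophages and endothelium, 5, 5 and 6 passed the filter on low counts, with summed levels of at most 18.8 CPM, and Krt14, Epcam, Adgre1 and Tyrobp did not pass it. Among the endothelial markers the receptor gene Tek was called higher in KO, at 0.804, 0.407 and 0.226 in WT and 2.00, 1.89 and 1.03 CPM in KO. The summed level of 4 Schwann cell markers was 23.1 to 33.6 CPM in WT and 14.0 to 19.5 CPM in KO control libraries, without overlap, and 1 of the 4, S100b, fell (−0.77). The part of such cells in the results was not tested. The methods describe female donors, but the Y-linked genes Ddx3y (114 to 122 CPM), Eif2s3y (52.0 to 56.0 CPM), Kdm5d and Uty were read in all 6 control libraries, and 0 of 5 sex-linked genes passed the test in edgeR, at an unadjusted p under 0.05 or in DESeq2. On principal component 1 of log2 CPM, which held 46.1% of the variance of the 6 libraries, the KO libraries were at 18.8 to 20.7 and the WT libraries at −26.2, −25.9 and −7.22. Component 2 (23.3%) set WT control replicate 3 apart, at 29.8.

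Transcripts of rod and cone photoreceptors, cells of the retina, were present in every library and were not evenly spread. The 23 photoreceptor genes examined, a list drawn up after the data were seen, all passed the filter. Their summed level came to 1573, 1687 and 414 in the WT control and 537, 483 and 544 CPM in the KO control libraries, each in the order of replicates 1 to 3. WT control replicates 1 and 2 were thus well above the other 4 control libraries, and WT control replicate 3 was below all KO control libraries. In the senescent libraries the sum ranged from 222 to 709 CPM. Xist was likewise highest in WT control replicates 1 and 2 and lowest in WT control replicate 3, at 21.4, 22.1 and 5.82 in WT and 6.04, 6.80 and 7.77 CPM in KO control cells. The source of these transcripts was not tested. Of the 205 genes called lower in KO, 148 (72.2%) had WT control replicates 1 and 2 both above the other 4 control libraries. The pattern was seen in 1542 of all 17416 genes tested (8.85%) and in 0 of the 237 genes called higher. Choosing genes with WT above KO raises this share by itself, and genes called higher can hardly show the pattern. These shares are therefore a description only. Because the photoreceptor transcripts were unevenly spread, the list counts below are also given from 2 fits chosen after the data were seen. Counts are given as higher and then lower. The first is the same fit with the log2 sum of the photoreceptor genes as an added term. The second is the same fit without WT control replicates 1 and 2. In it the single WT control library left is assumed to vary like the other groups.

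**Figure D1:**
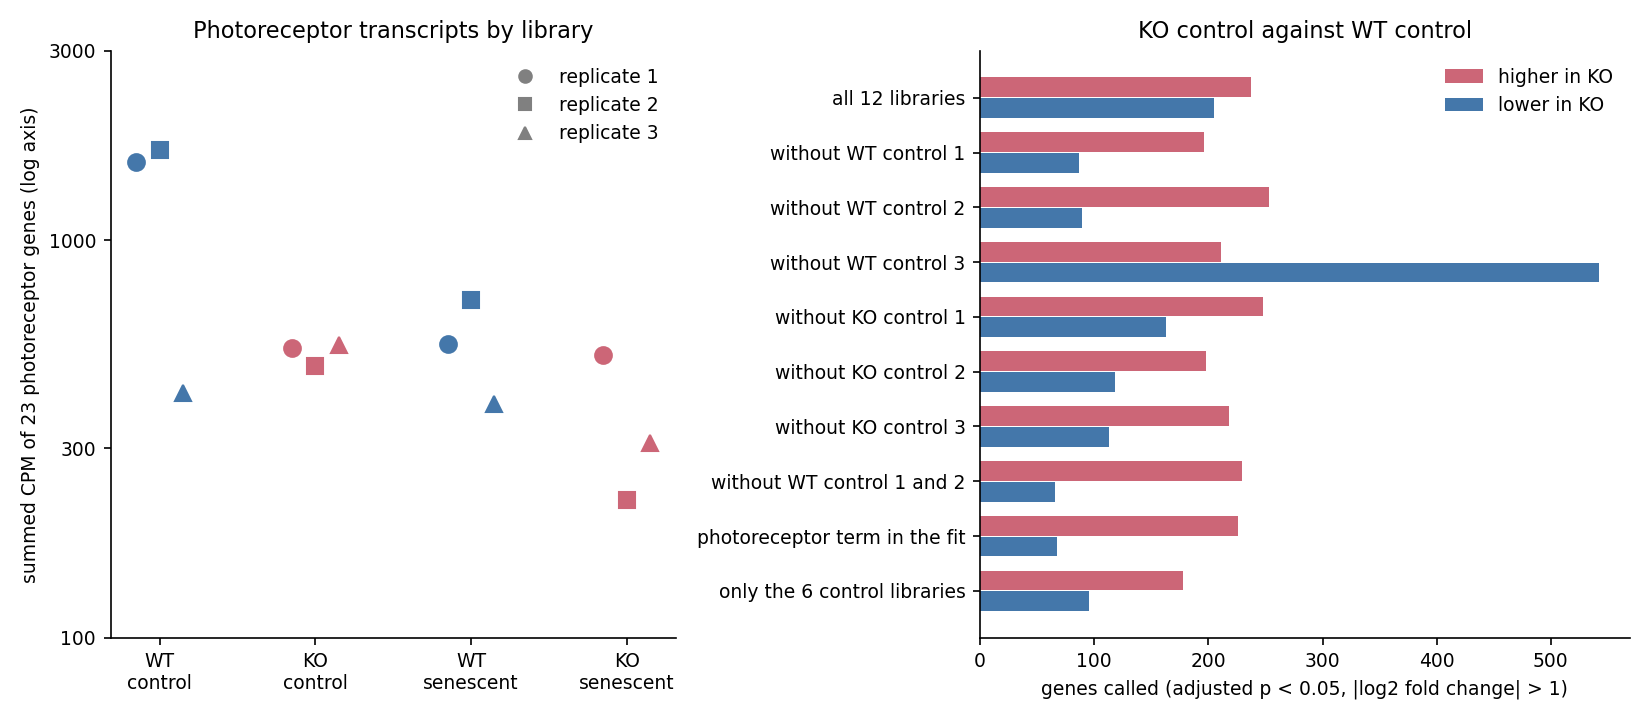
Left, the summed level of 23 photoreceptor genes in CPM (log axis) in each of the 12 libraries, coloured by genotype. Right, genes called higher or lower in KO control than in WT control cells with all libraries, with libraries left out and with the photoreceptor sum as a term. WT control replicates 1 and 2 (1573 and 1687 CPM) sit above the other 10 libraries, and the number called lower runs from 66 to 542 while the number called higher stays between 178 and 253.

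Loss of BMAL1 was accompanied by 442 called genes, at an adjusted p under 0.05 and a log2 fold change over 1 in size, in edgeR's quasi-likelihood test. Of 17416 genes tested, 237 were called higher in KO control cells (1.36%) and 205 lower (1.18%). Without the fold change threshold 1405 were higher (8.07%) and 864 lower (4.96%). All 3 KO libraries lay above all 3 WT libraries in 229 of the 237 genes called higher, and below them in 130 of the 205 called lower, while over all genes tested the groups did not overlap in these directions in 15.6% and 10.3%. The median level of the called genes was low, 2.24 CPM for those higher and 1.33 CPM for those lower. With the photoreceptor term 226 genes were called higher, 189 of them among the 237, and 67 lower, 60 of them among the 205. Without WT control replicates 1 and 2 the counts were 229 and 66, of which 154 and 45 were shared. The number called lower was 87 without WT control replicate 1, 89 without WT control replicate 2, 118 without KO control replicate 2, 113 without KO control replicate 3 and 542 without WT control replicate 3. The share of called genes that were higher was thus 53.6% with all libraries, 77.1% with the photoreceptor term and 77.6% without WT control replicates 1 and 2. The set of genes higher in KO control cells thus varied less between these fits than the set of lower genes, of which 60 of 205 were called again with the photoreceptor term.

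Arntl itself (ENSMUSG00000055116, chromosome 7, 113207465 to 113314126) was at 29.8, 31.6 and 33.2 in WT and 15.2, 11.8 and 12.5 CPM in KO, with WT replicates 1 to 3 given first and KO replicates 1 to 3 after them, here and below. The groups did not overlap, yet Arntl still received reads in each KO library. Its log2 fold change was −1.26 (SE 0.09, adjusted p 2e-09). Of the 7 genes of clock activators 2 rose and 1, Arntl, fell, and the counts were the same in both added fits. Over all genes tested 8.07% were higher and 4.96% lower, and each list count below is to be read against these shares. Npas2, whose product can take the place of CLOCK beside BMAL1, was at 4.34, 3.91 and 3.84 in WT and 13.6, 16.2 and 12.1 CPM in KO. Its log2 fold change was 1.79 (SE 0.14, adjusted p 1.91e-08), and the groups did not overlap. Clock, Arntl2 and Rora, with log2 fold changes of −0.06, 0.03 and 0.22, did not pass the test (adjusted p 0.639, 0.892 and 0.246). Rorb, at 2.94, 2.69 and 0.858 in WT and 1.72, 1.35 and 1.07 CPM in KO, had overlapping groups and was highest in the 2 libraries rich in photoreceptor transcripts.

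Of 10 clock repressors 4 rose and 0 fell in edgeR, with 6 higher and 0 lower at an unadjusted p under 0.05 and 4 and 0 in DESeq2. The counts were 4 and 0 with the photoreceptor term and 3 and 0 without WT control replicates 1 and 2. Per2 (ENSMUSG00000055866, chromosome 1, 91415982 to 91459324), a PER repressor, was at 1.69, 1.79 and 1.13 in WT and 12.8, 13.3 and 12.3 CPM in KO, which gave the largest change of any clock gene, 3.04 (SE 0.16, adjusted p 2.43e-11). Cry1 (ENSMUSG00000020038, chromosome 10, 85131700 to 85185064), whose product blocks BMAL1 and CLOCK, was at 10.7, 8.14 and 9.93 in WT and 46.6, 44.5 and 46.5 CPM in KO. The groups lay far apart, and the log2 fold change was 2.26 (SE 0.09, adjusted p 2.36e-13). Cry2, the other cryptochrome, was at 28.5, 37.1 and 32.01 in WT and 51.0, 58.5 and 50.1 CPM in KO, a smaller rise of 0.71 (SE 0.08, adjusted p 2.54e-06). Ciart, which encodes a repressor of BMAL1 and CLOCK, was at 3.70, 3.09 and 4.02 in WT and 6.76, 5.08 and 5.92 CPM in KO, and its rise of 0.72 (SE 0.17, adjusted p 0.00816) was 0.56 (adjusted p 0.192) without WT control replicates 1 and 2. Per1 was at 33.7, 35.1 and 34.6 in WT and 35.9, 42.4 and 42.4 CPM in KO, above WT in each KO library, but its change of 0.23 (SE 0.08, adjusted p 0.0728) did not pass the test. Per3 was at 5.23, 5.17 and 3.48 in WT and 3.80, 4.65 and 4.94 CPM in KO, with overlapping groups and a change of −0.06 (SE 0.17, adjusted p 0.884). The casein kinases Csnk1d and Csnk1e and the F-box gene Fbxl21, which act on PER and CRY proteins, had log2 fold changes of 0.10, 0.09 and −0.21 and did not pass.

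Among 12 clock outputs 3 rose and 3 fell, with counts of 3 and 2 with the photoreceptor term and 2 and 2 without WT control replicates 1 and 2, and the REV-ERB genes fell furthest. Nr1d1 (ENSMUSG00000020889, chromosome 11, 98767932 to 98775333) was at 18.3, 20.7 and 15.2 in WT and 3.88, 4.65 and 3.86 CPM in KO, and Nr1d2 (ENSMUSG00000021775, chromosome 14, 18204054 to 18239127) at 24.4, 23.7 and 23.4 in WT and 6.44, 5.89 and 5.84 CPM in KO. Both groups of libraries were well apart for either gene, with log2 fold changes of −2.12 (SE 0.11, adjusted p 4.16e-11) and −1.98 (SE 0.10, adjusted p 2.07e-11). The genes of the PAR bZIP factors, which bind D-boxes, did not move together. Tef was at 26.1, 25.6 and 21.1 in WT and 41.0, 45.4 and 44.9 CPM in KO and rose by 0.85 (SE 0.08, adjusted p 1.02e-07). Dbp was at 3.02, 3.83 and 1.81 in WT and 4.32, 6.20 and 3.95 CPM in KO, and its rise of 0.74 (SE 0.23, adjusted p 0.0353) was small against its spread. Hlf was at 4.58, 5.09 and 1.54 in WT and 1.44, 1.38 and 1.85 CPM in KO, so WT control replicate 3 lay among the KO libraries. Its change of −1.28 (SE 0.32, adjusted p 0.0105) was −0.51 (SE 0.29, adjusted p 0.321) with the photoreceptor term and 0.01 (adjusted p 0.993) without WT control replicates 1 and 2, and the part of the photoreceptor transcripts in it was not tested further. Tspan4, which encodes a tetraspanin, rose by 0.25 (SE 0.05, adjusted p 0.0026), and did not pass without WT control replicates 1 and 2 (adjusted p 0.0956). Nfil3, Bhlhe40, Bhlhe41, Usp2, Wee1 and Nampt, with log2 fold changes from −0.45 to 0.25, did not pass. The changes of Arntl, Npas2, Per2, Cry1, Cry2, Nr1d1, Nr1d2, Tef and Dbp passed the test in both fits that address the photoreceptor transcripts. The exons of Arntl, Cry2, Nr1d1, Dbp, Tef and Tspan4 overlap another annotated gene, and the use of strand in counting was not stated, so part of their counts may belong to the neighbour.

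**Figure D2:**
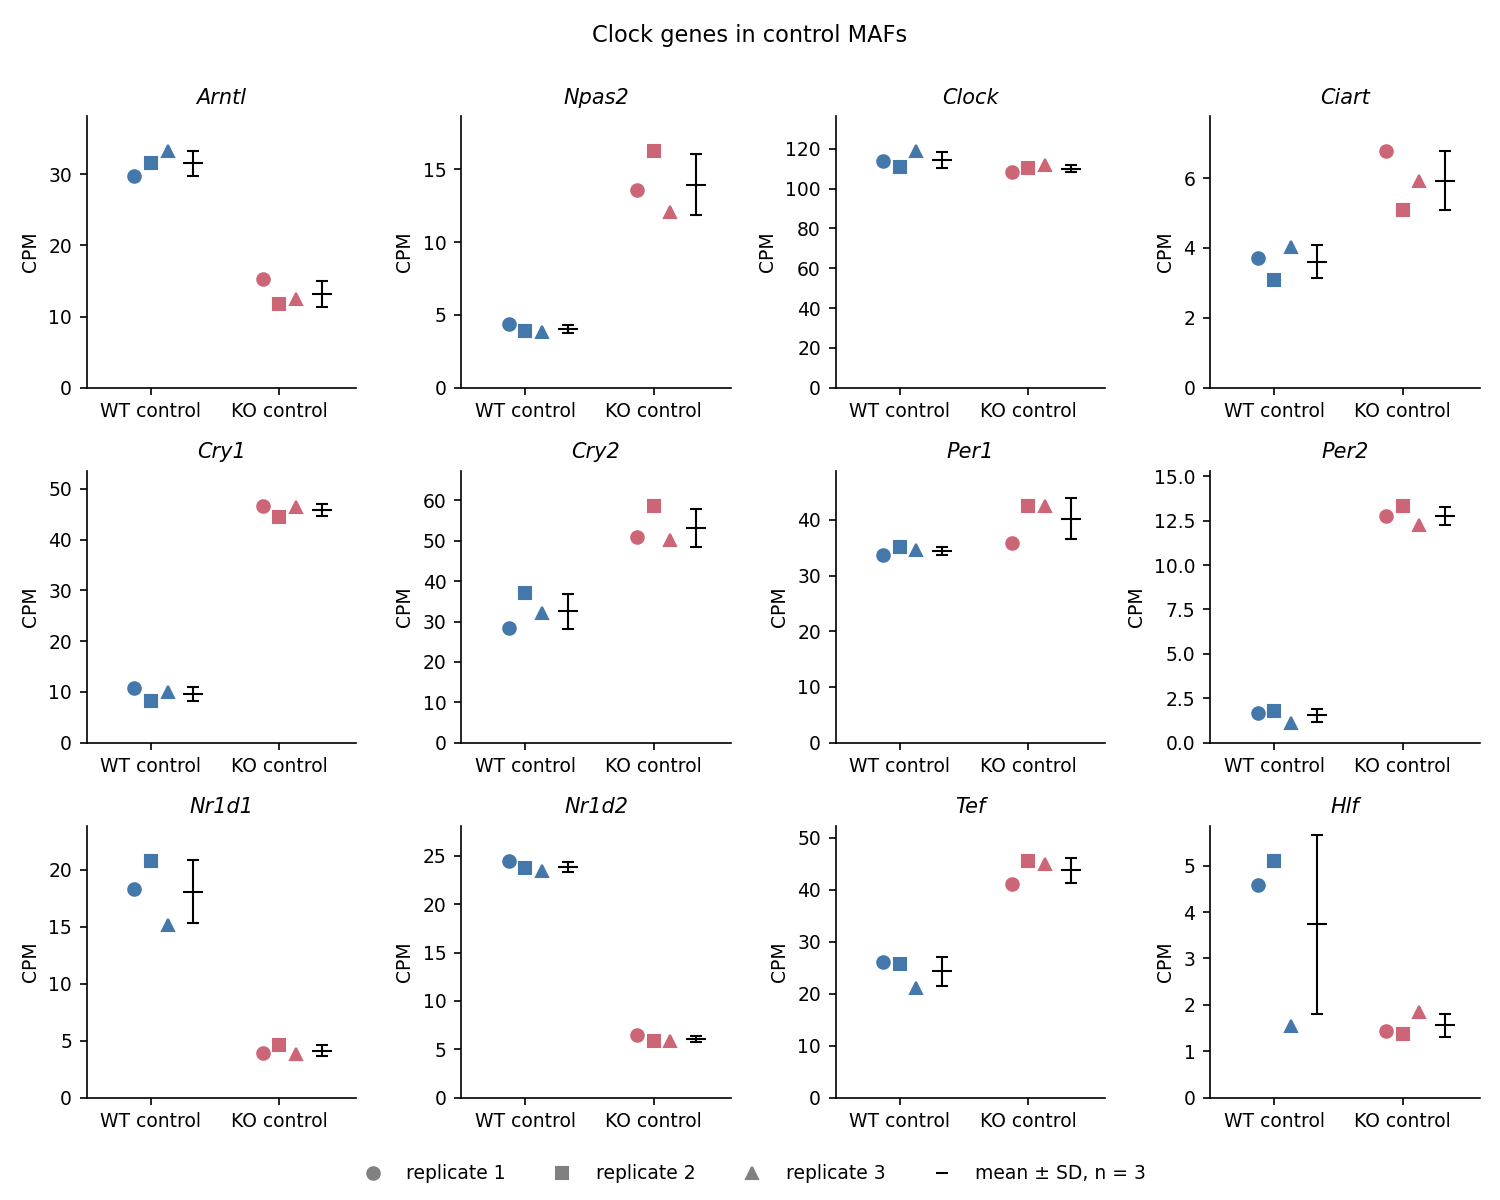
Level in CPM of 12 clock genes in the 3 WT control and 3 KO control libraries, with the mean and SD of each group to the right of its points and the replicate number as the shape. Per2, Cry1, Npas2, Nr1d1 and Nr1d2 have groups far apart, while Clock and Per1 differ little and Hlf is high only in WT control replicates 1 and 2.

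Of the 10 largest rises among called genes with at least 5 CPM and groups that did not overlap, 2 were in ribosomal pseudogenes, described with the neighbourhood of Arntl, and 2 in Per2 and Cry1. The others were Syt13, Ret, Spon2, Ucp2, Ly6c1 and Kcne4. Ucp2, on chromosome 7 at 12.8 Mb from Arntl, encodes a carrier of the inner mitochondrial membrane. It was at 11.5, 13.6 and 11.7 in WT and 64.4, 65.7 and 61.3 CPM in KO, and its log2 fold change was 2.38 (SE 0.08, adjusted p 1.03e-13). Ret, the receptor tyrosine kinase of GDNF family ligands, was at 4.67, 7.74 and 5.15 in WT and 31.2, 34.4 and 34.4 CPM in KO, a change of 2.51 (SE 0.13, adjusted p 5.22e-11). Syt13, of the synaptotagmin family, was at 3.58, 3.30 and 3.57 in WT and 20.4, 23.6 and 22.5 CPM in KO, a change of 2.67 (SE 0.12, adjusted p 7.79e-12). In these 3 genes every KO library was far above every WT library. Spon2, which encodes a secreted matrix protein, rose from 1.91 ± 0.237 CPM in WT to 10.5 ± 0.756 in KO (SD, n = 3) and Ly6c1, a membrane-anchored surface antigen, from 5.24 ± 0.621 CPM in WT to 23.9 ± 1.77 in KO, with log2 fold changes of 2.45 and 2.19. Kcne4, a potassium channel subunit, rose from 1.84 ± 0.505 CPM in WT to 8.34 ± 0.363 in KO, a log2 fold change of 2.18. After adding the photoreceptor term these 6 changes were 2.39, 2.58, 2.66, 2.57, 2.20 and 2.19, with every adjusted p at most 8.98e-06.

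Among called genes with at least 5 CPM and groups that did not overlap, the largest falls after the REV-ERB genes were in Lcn2, Ntrk2 and Hsd11b1. Lcn2, a secreted lipocalin that binds iron carriers and that inflammation induces, was at 22.9, 27.2 and 24.5 in WT and 8.16, 8.28 and 7.99 CPM in KO, a change of −1.61 (SE 0.08, adjusted p 2.6e-11). Hsd11b1, the enzyme that regenerates active glucocorticoid, was at 14.4, 16.9 and 16.8 in WT and 5.32, 5.99 and 4.68 CPM in KO, a change of −1.58 (SE 0.12, adjusted p 5.05e-09). In both the KO libraries lay below the WT libraries without overlap. Ntrk2, the receptor of BDNF, was at 11.6, 13.8 and 7.72 in WT and 2.48, 4.58 and 3.82 CPM in KO. WT control replicates 1 and 2 were the highest, and the change of −1.60 (SE 0.26, adjusted p 0.0022) was −1.08 (adjusted p 0.0514) without them. Ppbp, a chemokine, fell from 11.8 ± 3.75 CPM in WT to 4.02 ± 1.24 in KO and Msln, which encodes mesothelin, from 9.88 ± 3.29 CPM in WT to 3.63 ± 0.567 in KO, and in both WT control replicate 3 was the highest library. Klk8, a secreted serine protease, and Angptl7, a secreted angiopoietin-like protein, fell by 1.47 and 1.40 on the log2 scale. Eef1a2, a translation elongation factor of muscle and neurons, was at 14.0, 16.1 and 9.80 in WT and 5.28, 4.48 and 4.51 CPM in KO, and its change of −1.49 (SE 0.15, adjusted p 4.49e-06) was −1.21 (SE 0.13, adjusted p 1.23e-06) with the photoreceptor term.

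Cultures had been treated with a glucocorticoid, and 13 of its target genes were examined. 2 of the 13 rose, 4 fell and 7 did not pass, with a median log2 fold change of −0.13 against 0.01 over all genes tested. Tsc22d3 (GILZ), a classical glucocorticoid target, was at 13.4, 16.4 and 13.9 in WT and 28.2, 34.9 and 36.9 CPM in KO, a change of 1.19 (SE 0.17, adjusted p 0.000844). Dusp1, a phosphatase that shuts off MAP kinases, was at 70.1, 66.5 and 78.4 in WT and 44.9, 41.0 and 43.7 CPM in KO, a change of −0.73 (SE 0.06, adjusted p 4.2e-08), and Errfi1, an inhibitor of the EGF receptor, at 273, 280.1 and 289 in WT and 218, 192 and 194 CPM in KO, a change of −0.48 (SE 0.05, adjusted p 2.87e-06). Members of the list therefore moved in opposite directions. The counts were 2 and 4 with the photoreceptor term and 2 and 4 without WT control replicates 1 and 2.

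Of 23 collagen genes other than those of cartilage, 13 rose and 0 fell in edgeR, against 8.07% and 4.96% of all genes tested, with a median log2 fold change of 0.35. At an unadjusted p under 0.05, 15 were higher and 4 lower, and at the adjusted p alone in DESeq2 13 were higher and 3 lower. Col1a2, a chain of type I collagen, was at 4759, 4983 and 4805 in WT and 6589, 7099.9 and 6851 CPM in KO, a change of 0.50 (SE 0.04, adjusted p 9.49e-08). Col1a1, the other chain, and Col3a1, of type III collagen, both named after their values were seen, rose by 0.35 and 0.35, and Col3a1 did not pass in either added fit (adjusted p 0.0869 and 0.087). Col4a1, of the basement membrane, rose by 0.48 (SE 0.05, adjusted p 3.55e-07) and Col5a1, of type V collagen, by 0.41 (SE 0.04, adjusted p 1.44e-06). The largest changes were in collagens of low level. Col7a1, the collagen of anchoring fibrils, was at 6.39, 6.60 and 7.36 in WT and 24.1, 20.5 and 22.0 CPM in KO, a change of 1.71 (SE 0.13, adjusted p 1.75e-08). Col15a1, of the basement membrane zone, was at 9.81, 13.1 and 11.2 in WT and 32.2, 30.0 and 32.8 CPM in KO, a change of 1.48 (SE 0.10, adjusted p 1.43e-09). In each of these 7 genes every KO library exceeded every WT library. Given the photoreceptor term the counts were 9 and 0, and without WT control replicates 1 and 2 they were 10 and 0. Thy1, the surface antigen CD90 and the one called gene among the 11 fibroblast markers, named after its values were seen, was at 111, 118 and 119 in WT and 291, 266 and 253 CPM in KO, a change of 1.22 (SE 0.06, adjusted p 7.83e-12).

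Of 32 matrix proteases and their inhibitors tested, out of 33 listed, 16 rose and 3 fell, against 8.07% and 4.96% of all genes tested, with a median of 0.28. Mmp2, gelatinase A, was at 244, 259.9 and 244 in WT and 392, 446 and 435 CPM in KO, a change of 0.77 (SE 0.06, adjusted p 1.91e-08). Mmp14, which activates it at the cell surface, rose from 430.3 ± 7.69 CPM in WT to 519 ± 5.66 in KO, and Mmp11, stromelysin 3, from 9.23 ± 0.723 CPM in WT to 15.9 ± 0.975 in KO, with log2 fold changes of 0.27 and 0.78. Adamts2, which trims procollagens, was at 54.5, 56.1 and 60.3 in WT and 116, 123 and 119.6 CPM in KO, a change of 1.07 (SE 0.07, adjusted p 7.05e-09), and Adamts4, an aggrecanase, at 13.9, 14.2 and 15.2 in WT and 29.6, 35.0 and 34.6 CPM in KO, a change of 1.20 (SE 0.09, adjusted p 7.05e-09). Adamts16, another secreted metalloproteinase, was at 12.0, 13.0 and 12.2 in WT and 32.3, 50.1 and 47.9 CPM in KO, a change of 1.81 (SE 0.22, adjusted p 0.000335). The 3 genes that fell, named after their values were seen, were Adamts1, Adamts5 and Mmp24, with log2 fold changes of −0.70, −0.73 and −1.28, and Adamts5 did not pass without WT control replicates 1 and 2 (adjusted p 0.0785). The counts were 13 and 3 with the photoreceptor term and 11 and 2 without WT control replicates 1 and 2. Of 12 contractile genes 7 rose and 2 fell. Actg2, a smooth muscle actin, was at 4.34, 4.68 and 5.37 in WT and 13.7, 11.7 and 12.2 CPM in KO, a change of 1.38 (SE 0.13, adjusted p 1.33e-07), and Cnn1 (calponin), Myl9 and Lmod1 rose by 0.55, 0.45 and 0.85. Ccn1, a matricellular target of YAP and serum response factor, was at 807, 805 and 896 in WT and 668, 596 and 605 CPM in KO and fell by 0.42 on the log2 scale. The counts of contractile genes were 5 and 2 with the photoreceptor term and 4 and 3 without WT control replicates 1 and 2. The summed level of 4 skeletal muscle markers was lower in KO control libraries, 22.9 to 33.9 CPM, than in WT control libraries, 45.3 to 58.8 CPM. Nearly all of it was the actin gene Acta1, at 1131, 1074 and 1291 counts in WT and 827, 661 and 586 in KO. Ckm, Myh3 and Tnnt1 had at most 19 counts in any control library. Myod1, Myog, Myf5 and Pax7 did not pass the filter on low counts. The part of muscle cells in these changes was not tested.

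Cartilage genes, which ear fibroblast cultures can carry from the cartilage of the ear, were examined as another cell type. Of 25 tested, out of 27 listed, 2 rose and 3 fell. Their summed level was 9970.3 to 12428 CPM in WT and 6811 to 9601 CPM in KO control libraries. Col2a1, the main collagen of cartilage, was at 4778, 5563 and 4523 in WT and 2489.7, 3491 and 3112 CPM in KO, and Cnmd, chondromodulin, at 381, 507 and 371 in WT and 168, 287 and 262 CPM in KO. Their log2 fold changes were −0.71 (SE 0.12, adjusted p 0.00429) and −0.81 (SE 0.20, adjusted p 0.0315). With the photoreceptor term 1 cartilage gene was lower, Col2a1, and without WT control replicates 1 and 2 none was, with adjusted p 0.087 for Col2a1 and 0.256 for Cnmd. The members did not move together: 20 of the 25 did not pass, and the log2 fold change was above 0 in 10. With the photoreceptor term Sox9, Acan and Col11a1 changed by 0.12, 0.06 and −0.13 and did not pass. Cilp and Prg4 rose, by 1.27 and 0.48 with that term. Whether the content of chondrocytes differed, and its part in the lists above, was not tested. Fewer such cells cannot be told apart from less RNA per cell.

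Of 27 WNT ligands and antagonists tested, out of 28 listed, 10 rose, 3 fell and 14 did not pass, against 8.07% higher and 4.96% lower of all genes tested, with a median of 0.40, and 7 of the 10 were called. Wnt4 (ENSMUSG00000036856, chromosome 4, 137277489 to 137299726), a WNT ligand, was at 0.804, 0.529 and 0.903 in WT and 5.96, 8.69 and 8.59 CPM in KO, a change of 3.38 (SE 0.23, adjusted p 1.43e-09), the largest in the list. Rspo2, an R-spondin that strengthens WNT signals, was at 0.362, 0.326 and 0.722 in WT and 2.00, 2.42 and 2.53 CPM in KO, a change of 2.31 (SE 0.30, adjusted p 1.72e-05). The antagonist Dkk2 was at 2.41, 1.59 and 2.57 in WT and 10.0, 7.58 and 7.30 CPM in KO, a change of 1.92 (SE 0.21, adjusted p 7.13e-06), and Nkd2, which acts inside the cell, at 3.02, 2.73 and 3.21 in WT and 9.28, 10.7 and 8.93 CPM in KO, a change of 1.69 (SE 0.14, adjusted p 2.99e-08). Wnt5b rose from 9.09 ± 0.853 CPM in WT to 18.1 ± 1.72 in KO, a log2 fold change of 0.99. Among these named genes ligands, an agonist and antagonists rose side by side, each without overlap between the groups. Others fell. The ligand Wnt11, on chromosome 7 at 14.4 Mb from Arntl, had a log2 fold change of −0.72 (SE 0.16, adjusted p 0.00393). The antagonist Frzb was at −0.61 (adjusted p 0.0448) with the photoreceptor term. Ligands and antagonists thus moved both ways in the list. The counts were 8 and 2 with the photoreceptor term and 10 and 0 without WT control replicates 1 and 2. In the BMP and TGF-beta list 5 of 25 rose and 2 fell, with counts of 5 and 2 with the photoreceptor term and 3 and 1 without WT control replicates 1 and 2. Grem1, the secreted BMP antagonist gremlin, was at 134, 157 and 164 in WT and 389, 362 and 371 CPM in KO, a change of 1.31 (SE 0.08, adjusted p 2.01e-09). Tgfb3 rose by 0.56 and Inhbb, an activin subunit, by 0.70, while Fst (follistatin) and Tgfb2 fell by 0.41 and 0.34 on the log2 scale. Inhbb and Tgfb2 did not pass without WT control replicates 1 and 2 (adjusted p 0.0731 and 0.0781).

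Of 21 genes of cholesterol synthesis 15 rose and 0 fell in edgeR, and the log2 fold changes of all 21 were above 0, with a median of 0.35. At an unadjusted p under 0.05, 17 were higher and 0 lower, and at the adjusted p alone in DESeq2 15 and 0. None of the changes was over 1. Cyp51, which removes a methyl group from lanosterol, was at 85.5, 88.1 and 83.7 in WT and 119, 114 and 119 CPM in KO, a change of 0.45 (SE 0.05, adjusted p 4.21e-06). Srebf2, the gene of the factor that drives the pathway, was at 148, 156 and 153 in WT and 184, 196 and 190.3 CPM in KO, a change of 0.32 (SE 0.05, adjusted p 7.72e-05). Idi1 and Fdps rose by 0.55 and 0.42. Given the photoreceptor term 12 of the 21 were higher and 0 lower, and without WT control replicates 1 and 2 the counts were 10 and 0. In the list of adipogenic regulators and lipid uptake 2 of 9 tested rose and 2 fell, with counts of 2 and 1 with the photoreceptor term and 2 and 1 without WT control replicates 1 and 2. Lpl, lipoprotein lipase, was at 1.05, 1.02 and 0.948 in WT and 7.76, 9.19 and 7.69 CPM in KO, a change of 3.03 (SE 0.24, adjusted p 2.86e-08), whereas Pparg, the master regulator of fat cells, was at 53.5, 56.0 and 60.9 in WT and 32.4, 31.5 and 34.2 CPM in KO, a change of −0.80 (SE 0.07, adjusted p 4.35e-08).

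Genes of secreted factors of the senescence-associated secretory phenotype (SASP) moved both ways in these cells that were not senescent. Of 42 tested, out of 45 listed, 11 rose and 9 fell, with a median of −0.01. Plat, tissue plasminogen activator, was at 33.5, 32.1 and 28.2 in WT and 84.5, 75.8 and 85.1 CPM in KO, a change of 1.38 (SE 0.07, adjusted p 3.33e-11). Igfbp7 rose from 77.4 ± 5.37 CPM in WT to 161 ± 13.0 in KO, and Hgf, hepatocyte growth factor, from 23.7 ± 0.774 CPM in WT to 48.7 ± 2.71 in KO, with log2 fold changes of 1.06 (SE 0.07, adjusted p 2.44e-09) and 1.04 (SE 0.08, adjusted p 1.91e-08). Fgf7 rose by 0.49. Named after their values were seen, Gdf15, a stress cytokine, Ccl7, a monocyte chemokine, and Igfbp6 rose by 1.79, 1.18 and 0.85, while the chemokine Cxcl1, the adhesion receptor Icam1 and Angptl4 fell by 0.79, 0.66 and 0.55 on the log2 scale. Ereg, a ligand of the EGF receptor, was at 149.97, 149.6 and 178 in WT and 83.5, 69.1 and 68.2 CPM in KO, a change of −1.11 (SE 0.09, adjusted p 1.19e-06). The counts were 9 and 9 with the photoreceptor term and 8 and 6 without WT control replicates 1 and 2.

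**Figure D3:**
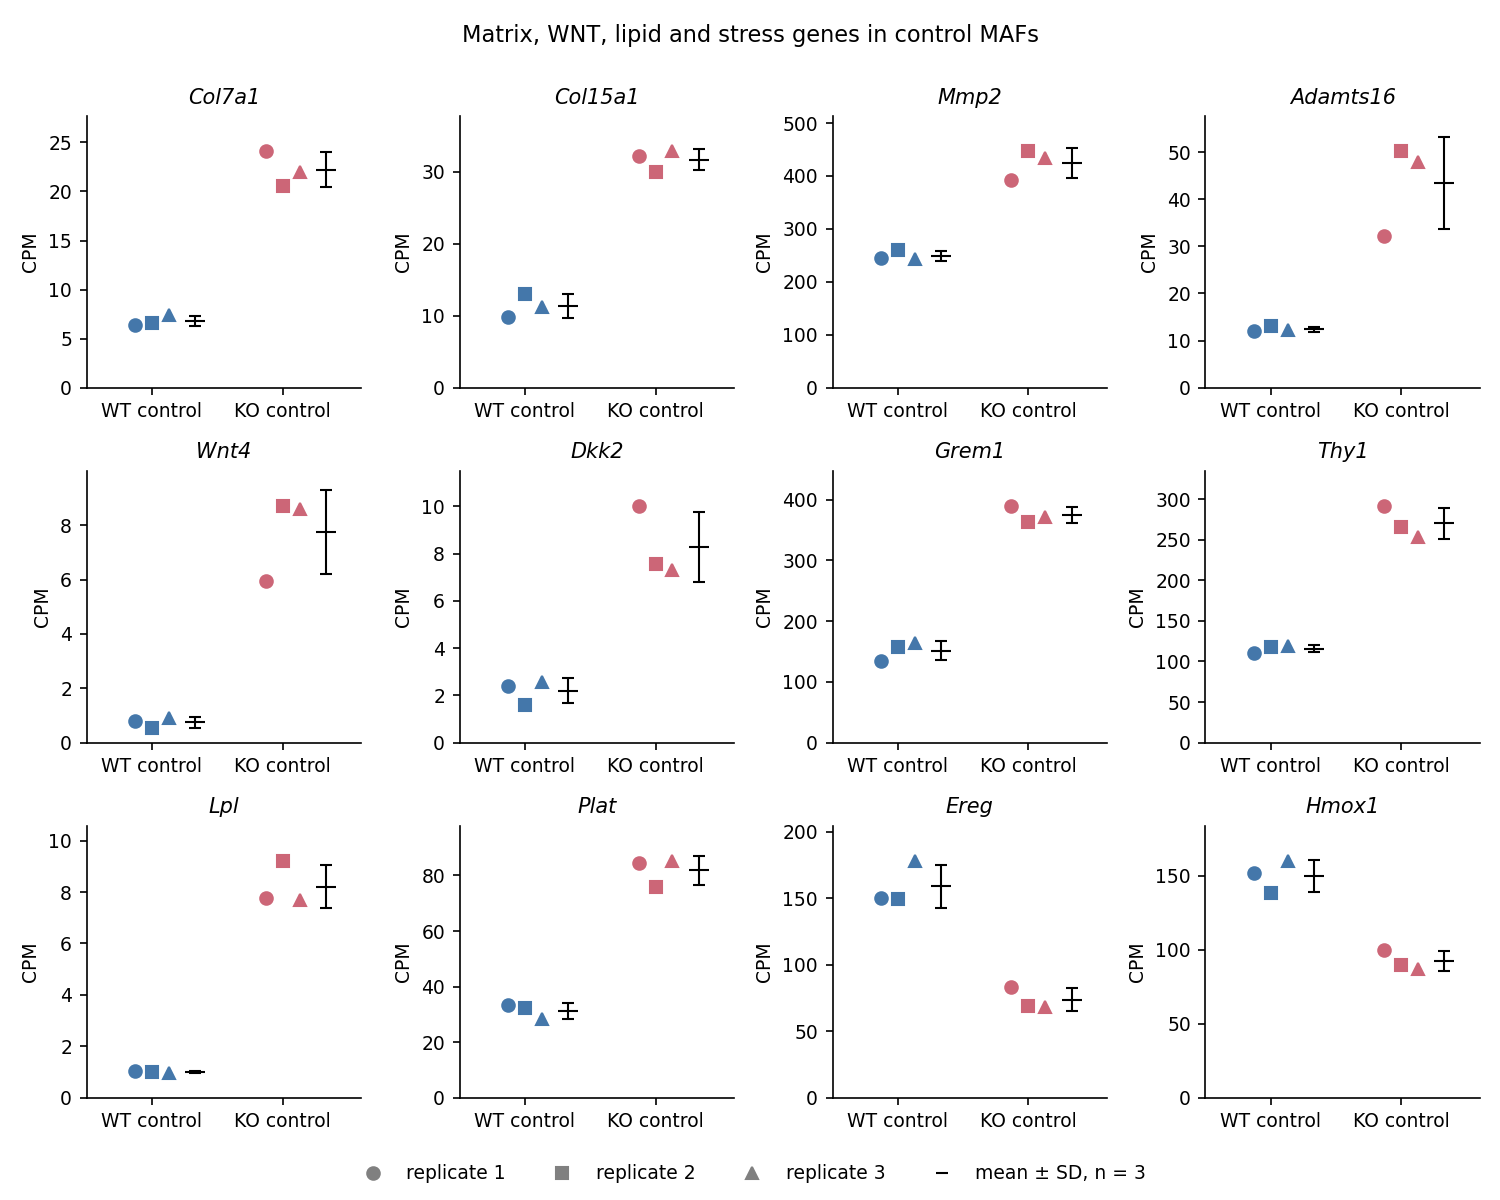
Level in CPM of 12 genes of matrix, WNT and BMP signals, lipid uptake, secretion and stress in the 3 WT control and 3 KO control libraries, with the mean and SD of each group to the right of its points. In every panel the groups do not overlap, and only Ereg and Hmox1 are lower in KO cells.

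In the list of NRF2 targets and glutathione enzymes, which respond to oxidative stress, 2 of 24 rose, 6 fell and 16 did not pass, against 8.07% higher and 4.96% lower of all genes tested. Hmox1, heme oxygenase 1, was at 152, 138 and 159.6 in WT and 100.1, 89.8 and 87.2 CPM in KO, a change of −0.70 (SE 0.07, adjusted p 1.33e-06). Gpx3, a secreted glutathione peroxidase, was at 373, 449.96 and 359 in WT and 167, 229.7 and 203 CPM in KO, a change of −0.98 (SE 0.12, adjusted p 0.00046). Txnrd1 and Gsr, the reductases of thioredoxin and glutathione, fell by 0.47 and 0.36 on the log2 scale, while Cat, catalase, rose by 0.28. The counts were 2 and 6 with the photoreceptor term and 1 and 5 without WT control replicates 1 and 2. Of 5 genes of the aryl hydrocarbon receptor, which shares the protein family of BMAL1, 1 rose and 3 fell. The 1 called gene was the target Cyp1a1, lower in KO and near the floor, at 6, 12 and 7 counts in WT and 4, 3 and 2 in KO. With the photoreceptor term the 2 that passed in edgeR were Cyp1a1 (adjusted p 0.0416) and Ahrr (adjusted p 0.0428). Ahr, the receptor, rose by 0.23 (SE 0.06, adjusted p 0.0199), and its repressor Ahrr and its target Tiparp fell by 0.42 and 0.50, but without WT control replicates 1 and 2 none of the 5 passed, and with the photoreceptor term 0 were higher and 2 lower.

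Of 23 genes of CDK inhibitors and p53 targets 11 rose and 0 fell in edgeR, and of 45 cell cycle genes 1 rose, 2 fell and 42 did not pass, against 8.07% higher and 4.96% lower of all genes tested. The difference between the lists was not tested. At an unadjusted p under 0.05, 15 of the 23 were higher and 0 lower, and at the adjusted p alone in DESeq2 11 and 0. Cdkn1a, the CDK inhibitor p21, was at 165, 152 and 178 in WT and 238, 217 and 208 CPM in KO, a change of 0.42 (SE 0.06, adjusted p 7.9e-05). Trp53inp1, a p53 target, was at 36.3, 34.3 and 35.8 in WT and 58.0, 61.7 and 62.1 CPM in KO, a change of 0.77 (SE 0.06, adjusted p 1.02e-08). Cdkn1c, the CDK inhibitor p57, rose by 0.64 and Phlda3 and Pmaip1, p53 targets of cell death, by 0.42 and 0.69, which did not pass without WT control replicates 1 and 2 (adjusted p 0.107 and 0.0731). None of these changes was over 1. With the photoreceptor term 7 of the 23 were higher and 0 lower, and without WT control replicates 1 and 2 the counts were 3 and 1. In the cell cycle list Ccnd2, a D cyclin, rose by 0.33 (SE 0.05, adjusted p 5.5e-05) and Rrm2 and Cdc6, of DNA replication, fell by 0.33 and 0.27 on the log2 scale. The summed level of the 45 genes was 5275 to 6575 CPM in WT and 5808 to 6304 CPM in KO control libraries, and the ranges overlapped. The counts of cell cycle genes were 1 and 4 with the photoreceptor term and 1 and 5 without WT control replicates 1 and 2.

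Among 11 AP-1 subunits tested, out of 13 listed, 2 rose and 1 fell, against 8.07% and 4.96% of all genes tested, with counts of 1 and 1 with the photoreceptor term and 1 and 0 without WT control replicates 1 and 2. Jund was at 69.7, 68.1 and 70.2 in WT and 93.8, 91.0 and 91.2 CPM in KO, a change of 0.41 (SE 0.06, adjusted p 9.22e-05). Fosl1 was at 65.7, 59.2 and 69.9 in WT and 55.5, 40.2 and 45.0 CPM in KO, a change of −0.47 (SE 0.11, adjusted p 0.0126), which was −0.57 (adjusted p 0.0627) without WT control replicates 1 and 2. Atf2 rose by 0.18 (SE 0.06, adjusted p 0.0476), and did not pass under most alternatives. Of 10 BCL-2 family genes tested, out of 13 listed, only Bcl2l11, the gene of the death factor BIM, passed, and 0 fell in edgeR or DESeq2 (1 lower at an unadjusted p under 0.05). It was at 6.52, 6.92 and 7.68 in WT and 11.5, 10.5 and 11.2 CPM in KO, a change of 0.65 (SE 0.11, adjusted p 0.000413), which was 0.53 (adjusted p 0.0542) without WT control replicates 1 and 2.

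**Figure D4:**
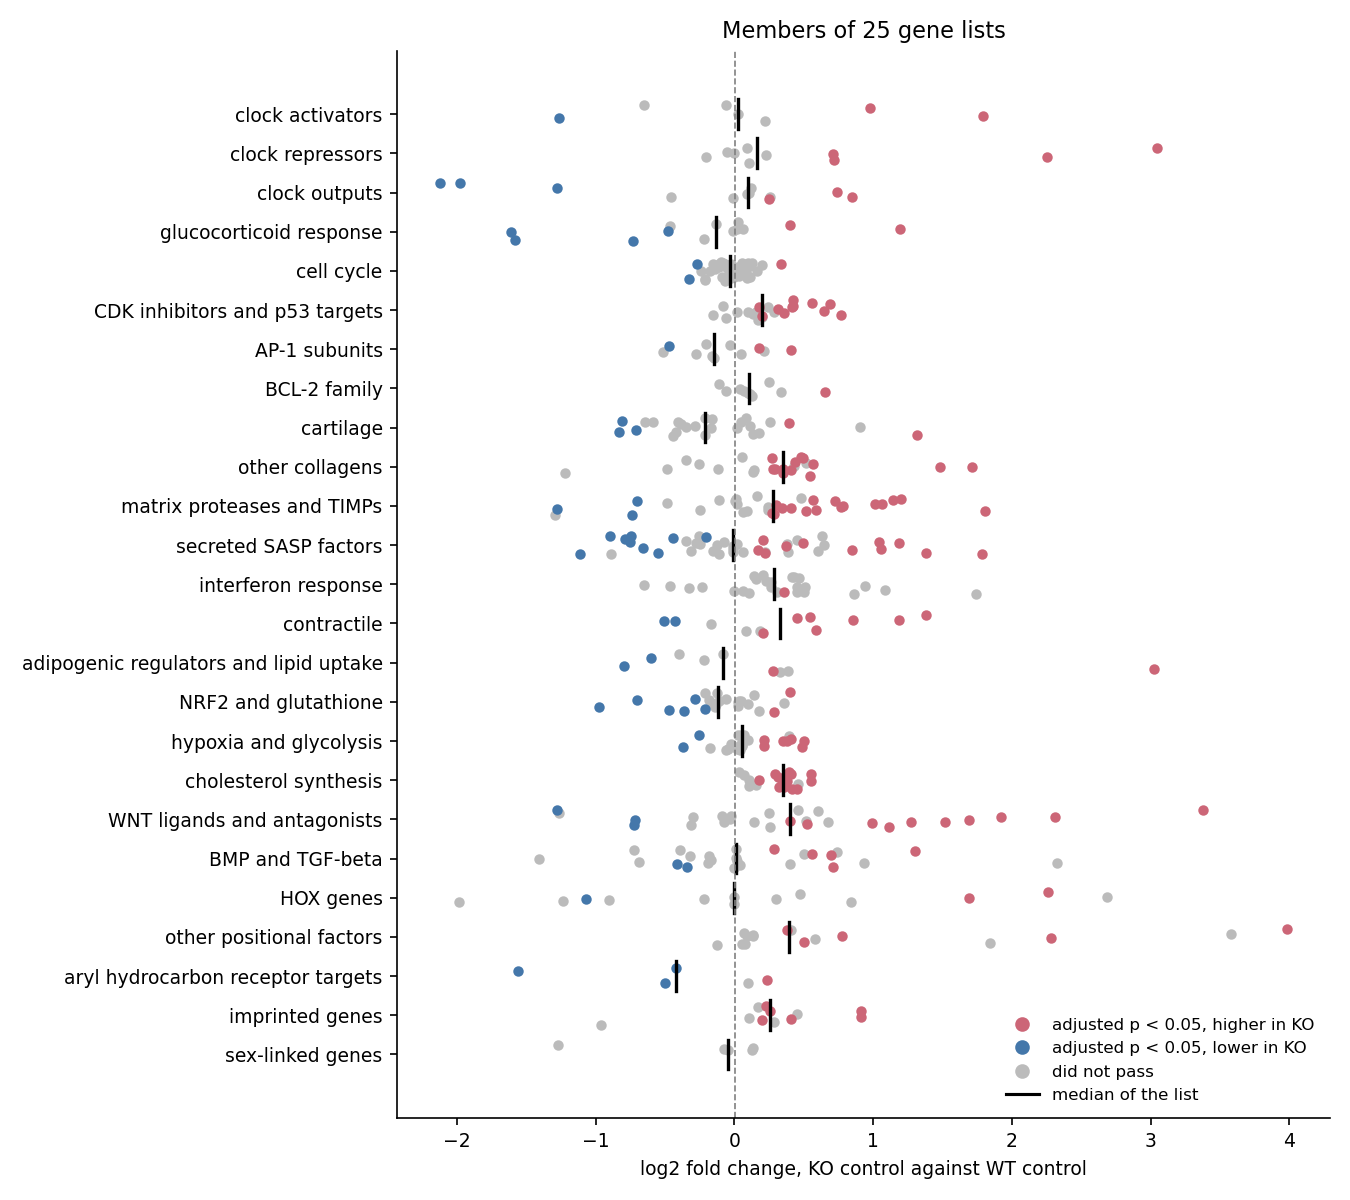
Log2 fold change of KO control against WT control cells for every tested member of 25 gene lists, 1 point per gene, coloured where the adjusted p was under 0.05. Black bars mark the list median and the dashed line the median of all genes tested (0.01). Collagens, proteases, cholesterol synthesis and CDK inhibitors lie mostly to the right, and cell cycle genes lie close to 0.

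Genes that flank a targeted locus can travel with it when a mutant line is bred, so the neighbourhood of Arntl was examined. Within 5, 10 and 20 Mb of Arntl on chromosome 7, 2.74%, 3.51% and 2.66% of genes tested were called, against 2.53% of the genes elsewhere. Besides Arntl, the called genes of at least 5 CPM within 20 Mb were Ucp2, described above, and Syt17, 5.15 Mb from Arntl, which was at 5.31, 6.03 and 6.14 in WT and 14.2, 11.3 and 12.8 CPM in KO, a change of 1.13 (SE 0.10, adjusted p 1.18e-07). At lower levels, some called genes within 20 Mb were read in 1 genotype only. Gm35082 was at 0, 0 and 0 in WT and 0.640, 0.707 and 0.859 CPM in KO. B230311B06Rik was at 0.362, 0.204 and 0.451 in WT and 0, 0 and 0 CPM in KO. How common such genes were elsewhere was not examined, and the part of the locus was not tested. The 2 largest rises among genes of at least 5 CPM were in processed pseudogenes. Rps13-ps1 (chromosome 8, 87047689 to 87048226) was at 0.161, 0.0814 and 0.361 in WT and 26.6, 20.4 and 17.0 CPM in KO, and Rps15a-ps6 (chromosome 11, 6172644 to 6173036) at 0.442, 0.326 and 0.722 in WT and 13.9, 9.23 and 8.72 CPM in KO. Their parent genes both lie on chromosome 7 within 5 Mb of Arntl and were lower in KO cells. Rps13 was at 212, 199 and 215 in WT and 161, 147 and 141 CPM in KO, and Rps15a at 270.3, 259 and 291 in WT and 169.6, 148 and 149 CPM in KO. Reads can be assigned to the wrong member where a parent gene and its copy are alike, which was not examined here. The counts of all 4 genes are therefore uncertain, and what part the locus or the mapping had in them was not tested.

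Whether these differences were also present after senescence was examined in the 6 senescent libraries, with which the control comparison shares no library. Of the 237 genes called higher in KO control cells, 108 also passed the test in the same direction between KO and WT senescent cells, where 11.9% of all genes did, and 9 passed in the opposite direction. Of the 205 called lower, 44 passed in the same direction, where 11.8% of all genes did, and 8 in the opposite one. The difference between the 2 comparisons itself passed the test for 114 of the 237 and 56 of the 205, against 20.9% of all genes tested, a share that the choice of genes with large control changes raises by itself. The difference passed the test and was over 1 in size for 3.66% of all genes. Over all 17416 genes the log2 fold changes of the 2 comparisons had a Pearson r of 0.195. Over the 442 called genes, chosen for large control changes, it was 0.656. Both are descriptions only, since genes are not independent replicates. Among clock genes the rises of Cry1, Cry2, Npas2 and Ciart were close in size in control (2.26, 0.71, 1.79 and 0.72) and senescent cells (2.52, 0.92, 1.59 and 0.66), and none of these 4 differences passed the test, which does not show that they were equal. Arntl fell less in senescent cells (−0.44), and Per2 rose less (1.96), with differences of −0.82 (SE 0.12, adjusted p 7.58e-05) and 1.08 (SE 0.21, adjusted p 0.0011).

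Several genes differed in opposite directions in the 2 states. Il1rn, the antagonist of the interleukin 1 receptor, was at 14.8, 19.1 and 15.1 in WT and 28.9, 37.2 and 38.2 CPM in KO, a change of 1.09 (SE 0.12, adjusted p 1.02e-05), and fell in senescent cells (−1.44). Ntrk3, the receptor of neurotrophin 3, was at 5.75, 5.62 and 4.38 in WT and 12.5, 14.9 and 14.4 CPM in KO, a change of 1.41 (SE 0.16, adjusted p 3.18e-06), and fell in senescent cells (−1.07). Megf6 and Lrrc17, which encode secreted proteins, rose by 1.16 and 1.04 in control cells and fell in senescent cells (−1.40 and −1.58). Lrrc17 did not pass with the photoreceptor term (adjusted p 0.0531). Hgf, which rose in control cells, fell in senescent cells (−0.48). Ereg and Fosl1, which fell in control cells, rose in senescent cells (0.33 and 0.64). For Wnt4, Rspo2 and Kcne4 the rise of control cells exceeded the log2 fold changes of 0.28, 0.30 and 0.10 in senescent cells, which did not pass the test. Chl1, a neural cell adhesion gene, and Syt8, of the synaptotagmin family, fell in control cells (−1.01 and −1.01) and further in senescent cells (−1.96 and −2.004).

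**Figure D5:**
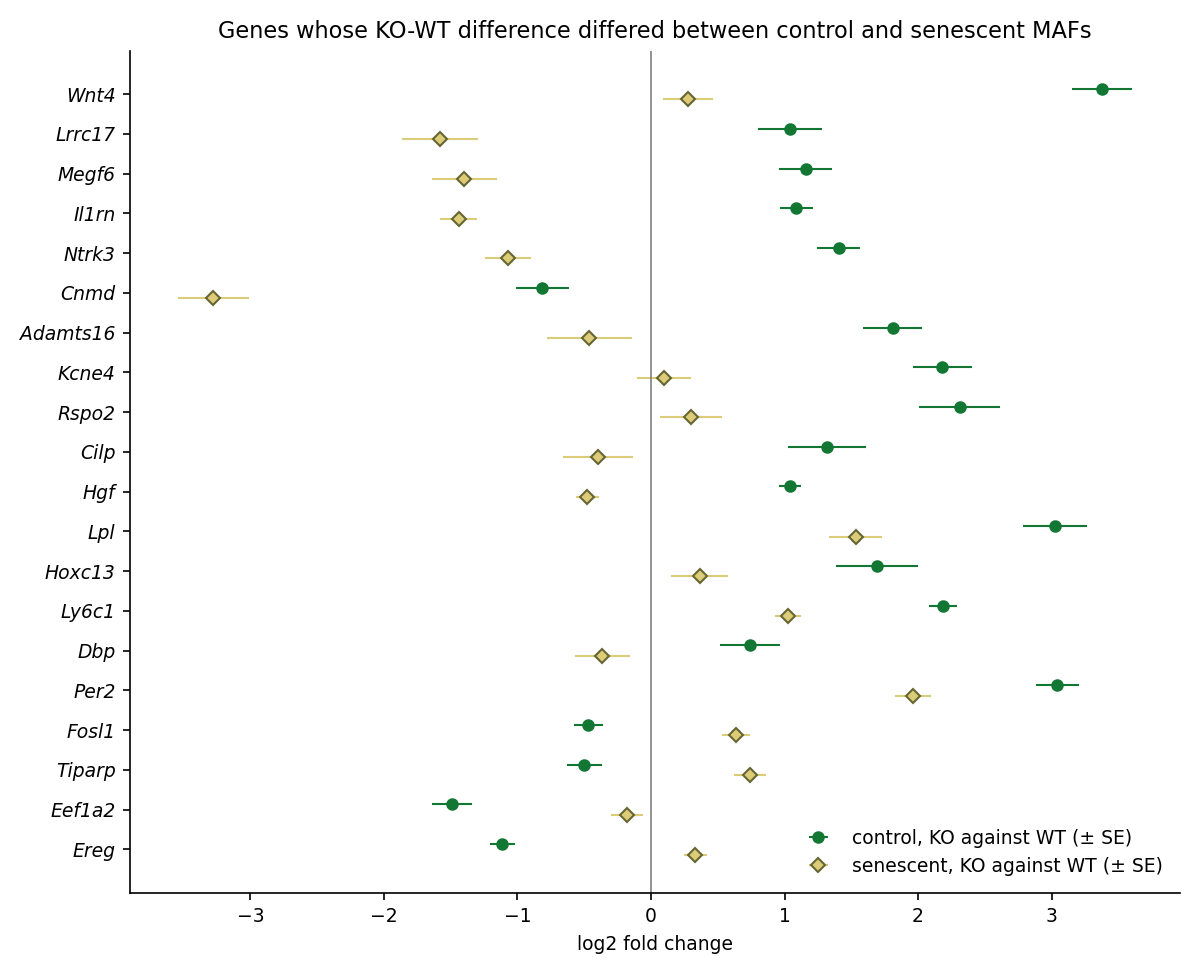
Log2 fold change of KO against WT, with SE, in control (circles) and senescent (diamonds) MAFs for the 20 named genes whose difference between the states was called. Wnt4, Rspo2 and Kcne4 are far higher in KO only in control cells, and Il1rn, Ntrk3, Megf6 and Lrrc17 lie on opposite sides of 0.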

How the data were processed

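Raw read counts per gene (49315 genes) were deposited as one table per genotype. According to the methods and the submitters' processing notes, the authors demultiplexed reads with bcl2fastq (2.17), trimmed them with Trimmomatic (0.36), aligned them to the mouse genome with STAR (2.5.2b) and counted them per gene with featureCounts. The use of strand and the annotation release are not given in the sources used here. Gene positions were taken from GENCODE on GRCm38 (49056 genes matched) and promoter windows from RefSeq on GRCm38.p6.

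Both count tables were joined, genes with low counts were removed (filterByExpr), and a quasi-likelihood model with TMM scaling and robust dispersions was fitted in edgeR (4.0.16, R 4.3.3) to all 12 libraries with 1 mean per group, and the dispersions were pooled over the 4 groups. P-values were adjusted by the Benjamini-Hochberg method over 17416 genes, and called genes had an adjusted p under 0.05 and changed by more than 1 on the log2 scale. "Rose" and "fell" are used at the adjusted p alone. SE is the log2 fold change divided by the root of F, and ± is the SD of 3 libraries. The fit was tested on simulated counts. No pair of libraries agreed within sampling noise.

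Named genes were all clock genes, the 10 called genes with the largest change in each direction among those averaging 5 CPM or more whose groups did not overlap, the 5 of each direction with the largest difference from the senescent comparison, up to 5 members of each other list by adjusted p, and called genes within 10 Mb of Arntl. Some genes named by this rule are left out. Members and lists were chosen with earlier results of these data known. Alternatives were DESeq2 (1.42.0) and its size factors, other filters on low counts, the 6 control libraries alone, the replicate number as a block, glmTreat and leaving out each library. The photoreceptor list, the fit with its sum and the fit without WT control replicates 1 and 2 were chosen after seeing the data.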

Additional observations from a re-analysis of the deposited data

Results flagged for a closer look

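The difference between KO and WT in control cells was set against the same difference in senescent cells by an interaction term in the edgeR fit, and values below are the control log2 fold change less the senescent one. Of the 237 genes called higher in KO control cells 114 passed this test at an adjusted p under 0.05, and of the 205 called lower 56 passed. Over all genes tested 20.9% passed. Choosing genes with large control changes raises the share by itself, so nothing is read from these counts. Among the genes named by rule the difference was called for 20, but the rule itself chose genes for this difference and for large control changes, so nothing is read from that number. The rise in control cells exceeded that in senescent cells for Wnt4 by 3.10 (SE 0.30, adjusted p 1.05e-06), for Rspo2 by 2.01 (SE 0.38, adjusted p 0.000881), for Kcne4 by 2.09 (SE 0.30, adjusted p 7.22e-05), for Lpl by 1.49, for Ly6c1 by 1.16, for Per2 by 1.08 and for Hoxc13 by 1.33.

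Genes that were higher in KO control cells and lower or not past the test in KO senescent cells had interactions of 2.53 (SE 0.18, adjusted p 2.89e-07) for Il1rn, 2.48 (SE 0.24, adjusted p 1.05e-06) for Ntrk3, 2.56 for Megf6, 2.62 for Lrrc17, 2.27 for Adamts16, 1.52 for Hgf, 1.71 for Cilp and 1.11 for Dbp. Genes lower in KO control cells and higher or not past the test in KO senescent cells had −1.44 (SE 0.13, adjusted p 7.73e-06) for Ereg, −1.31 for Eef1a2, −1.24 for Tiparp and −1.11 for Fosl1. Cnmd, the cartilage gene chondromodulin, fell further in senescent cells, with an interaction of 2.46. No group held 4 or more samples, so single libraries were not tested as outliers.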

How the results depend on the processing

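The number of genes called higher in KO control cells (237) was 1405 with no fold change threshold and 55 under glmTreat, and otherwise 178 to 270. The number called lower (205) was 864 with no fold change threshold, 8 under glmTreat, 320 with no filter on low counts and 95 from the 6 control libraries alone. Of the 2 fits chosen after seeing the data, the one with the photoreceptor term gave 67 and the one without WT control replicates 1 and 2 gave 66. Leaving out 1 library at a time gave 196 to 253 higher and 87 to 542 lower calls, the extremes being those without WT control replicates 1 (87) and 2 (89) and without WT control replicate 3 (542), with 118 and 113 without KO control replicates 2 and 3. The interaction gave 437 higher and 200 lower calls, with 337 to 587 and 134 to 346 on leaving out 1 library, 346 being that without WT control replicate 3. List members summed over lists were 131 higher and 47 lower, and 85 higher without WT control replicates 1 and 2. DESeq2 called 226 higher and 249 lower, so the share of higher calls was 53.6% in edgeR and 47.6% in DESeq2, 45.8% with no filter, 65.2% from the 6 control libraries, 77.1% with the photoreceptor term, 77.6% without WT control replicates 1 and 2 and 28% without WT control replicate 3. Replicate numbers did not pair the samples: deviations of same-numbered WT and KO control libraries correlated at −0.02, 0.12 and −0.11. With the replicate number as a block 237 genes were called higher and 213 lower. Of the genes named by rule, Atf2 then no longer passed the test (adjusted p 0.0504) and Per1 did (adjusted p 0.04). The sign of the log2 fold change turned in 1 gene that had passed the test, Hlf, and in genes that had not. After adding the photoreceptor term Per3 was 0.16 and Rorb 0.33. Without WT control replicates 1 and 2 Hlf was 0.014, Per3 0.36, Rorb 0.69 and Bhlhe41 0.19. Leaving out 1 library, Per3 ran from −0.22 to 0.047, Arntl2 from −0.069 to 0.13, Fbxl21 from −0.67 to 0.27 and Bhlhe40 from −0.050 to 0.027. The causes of these changes were not tested. With 3 libraries a group and a floor of 3 counts, levels near 0.101 to 0.135 CPM could not be told from 0.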

Other observations

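Of 24 genes of hypoxia and glycolysis 7 rose and 2 fell, all by less than 1, with counts, higher and then lower, of 5 and 2 with the photoreceptor term and 5 and 2 without WT control replicates 1 and 2. Egln3, an oxygen sensor, rose from 29.0 ± 4.31 CPM in WT to 41.1 ± 3.42 in KO (SD, n = 3), and Bnip3 and Pfkfb3 by 0.38 and 0.41 on the log2 scale. Of 11 imprinted genes 6 rose and 0 fell in edgeR, with 7 higher and 1 lower both at an unadjusted p under 0.05 and in DESeq2, and with counts of 4 and 0 with the photoreceptor term and 3 and 0 without WT control replicates 1 and 2. H19, a growth-limiting RNA, was at 144, 191 and 141 in WT and 224, 349 and 324 CPM in KO, and Igf2, its neighbour, at 9.29, 10.7 and 9.35 in WT and 14.7, 19.9 and 20.7 CPM in KO. Their log2 fold changes were 0.91 (SE 0.20, adjusted p 0.0184) and 0.91 (SE 0.14, adjusted p 0.000781), and H19 did not pass in either added fit (adjusted p 0.0738 and 0.0905). Among 26 genes of the interferon response only Irf9 passed in edgeR, as in DESeq2 and at an unadjusted p under 0.05, at 0.36 (SE 0.11, adjusted p 0.0392), and it did not with the photoreceptor term (adjusted p 0.195) or without WT control replicates 1 and 2 (0.463). Of 13 HOX genes tested, out of 39 listed, 2 rose and 1 fell, with counts of 1 and 0 with the photoreceptor term and 1 and 0 without WT control replicates 1 and 2. Among the 13, Hoxa10 and Hoxd11 had 0 counts in every control library and Hoxb9, Hoxc6 and Hoxd13 at most 1, so these could hardly pass. Hoxc13 was at 0.603, 0.448 and 0.271 in WT and 1.28, 1.25 and 1.85 CPM in KO. Of 16 other positional factors tested, out of 19 listed, 5 rose and 0 fell in edgeR, with 7 and 0 at an unadjusted p under 0.05 and 6 and 0 in DESeq2, and with counts of 4 and 0 with the photoreceptor term and 1 and 0 without WT control replicates 1 and 2. Prrx2, a homeobox gene of mesenchyme, was at 75.5, 77.2 and 83.0 in WT and 116, 111 and 106 CPM in KO, a change of 0.50 (SE 0.06, adjusted p 5.35e-06), and Tbx3 rose by 0.77, and did not pass without WT control replicates 1 and 2 (adjusted p 0.182).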
